A study of Mus musculus with 4 samples.

Results

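The genes of 10 core transcription factors of the embryonic heart were followed through the single-cell counts of E10.5 mouse hearts. They were chosen by name and are Gata4, Gata5, Gata6, Nkx2-5, Tbx5, Tbx20, Mef2c, Hand1, Hand2 and Myocd, and all 10 were found among the 32285 genes of the files. Hearts came from C57BL/6J embryos labelled wild-type (Wt) or homozygous for the I383V substitution of Cyp51 (Ho), a sterol enzyme of cholesterol synthesis, and the label CRISPR/Cas9 stands under treatment for both genotypes. There were 2 libraries for each genotype, named Wt1, Wt2, Ho1 and Ho2. The sources used here do not say whether a library held 1 heart or a pool of hearts. They also do not say whether the 2 libraries of a genotype came from separate litters, so the p-values measure only the spread between these libraries. Ho1 and Ho2 came from different embryos by the sex genes given below, while the spread between Wt1 and Wt2 may be technical. The values are counts of unique molecular identifiers (UMIs), which mark each captured mRNA molecule once, for barcodes that mark single cells.

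These factors bind DNA side by side at heart enhancers, and several of them bind to each other. Gata4, Gata5 and Gata6 are zinc finger factors that recognize GATA motifs, Nkx2-5 is a homeodomain factor, Tbx5 and Tbx20 are T-box factors, Mef2c is a MADS-box factor, and Hand1 and Hand2 are basic helix-loop-helix factors. Myocd (myocardin) does not bind DNA by itself and acts as a coactivator of the serum response factor Srf. Loss of single members in mice is known to cause defects of looping, chamber growth, septa or cushions, and besides heart muscle several of them also act in endocardium, cushion mesenchyme, epicardium and the mesoderm that feeds the outflow tract.

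RefSeq promoter windows of GRCm38.p6, from 250 bases before to 50 bases after the annotated start, were at hand for 5 of the 10 genes (Gata5, Nkx2-5, Tbx20, Mef2c and Hand2). Those of Nkx2-5 and Hand2 are shown because the levels of these factors ran most opposite to each other over the cell groups described below. The window of Nkx2-5 lies at chr17:26841516-26841815 on the minus strand and that of Hand2 at chr8:57320733-57321032 on the plus strand. Both windows were searched on both strands for the binding letters of GATA factors, AGATAA, of NKX2-5, AAGTG, and of T-box factors, GGTGTG, whose matches do not overlap in these windows and are marked in capitals where found. The sequences are given 5′ to 3′ on the strand of the gene.
Nkx2-5: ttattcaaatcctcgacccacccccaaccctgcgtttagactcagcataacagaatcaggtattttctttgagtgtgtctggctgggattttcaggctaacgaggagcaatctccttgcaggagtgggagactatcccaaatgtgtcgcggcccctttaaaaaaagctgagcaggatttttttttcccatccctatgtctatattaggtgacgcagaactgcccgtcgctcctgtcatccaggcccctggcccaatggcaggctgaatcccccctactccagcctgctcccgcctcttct
Hand2: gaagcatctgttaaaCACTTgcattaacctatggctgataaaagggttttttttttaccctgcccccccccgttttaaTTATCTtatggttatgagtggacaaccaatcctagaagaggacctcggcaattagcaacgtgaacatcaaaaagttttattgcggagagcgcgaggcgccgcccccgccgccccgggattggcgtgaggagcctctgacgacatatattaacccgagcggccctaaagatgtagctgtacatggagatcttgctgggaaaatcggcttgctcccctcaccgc
The Hand2 window held 1 GATA match, read as TTATCT on this strand and starting at base 79, and 1 NKX2-5 match, read as CACTT and starting at base 16. The Nkx2-5 window held none of the 3 motifs. Of all 32851 promoter windows, 11.2% held AGATAA, 46.4% AAGTG and 19.0% GGTGTG, so matches of this kind are common and describe the letters only.

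The files held 109893733 UMIs for Wt1, 117034633 for Wt2, 127018819 for Ho1 and 107377100 for Ho2. After filters on cells and removal of doublets, 8908, 7154, 6980 and 6126 cells were used in the same order, with median depths of 10552, 14231, 15654 and 15843 UMIs per cell. Any 2 libraries shared between 14 and 34 barcodes. The libraries also differed in sex, with 28872 UMIs of Xist in Ho1 against 5, 4 and 2 in Wt1, Wt2 and Ho2, and no UMI of 4 Y chromosome genes in Ho1 against 8797, 9908 and 9659. The only library with high Xist was thus Ho1, and the part of sex in the comparison of Ho with Wt was not tested. A single marker gene then selected the cells of each group, called a gate here. Cardiomyocytes, with a high sum of 6 sarcomere genes, were split into ventricular cells by Myl2 and, among those with little Myl2, into atrial cells by Stard10 and sinus venosus cells by Shox2. The other cells were taken as endocardial by Cdh5, cushion by Hapln1, epicardial by Upk3b and pharyngeal by Crabp1, each with at least 2 UMIs of the marker. Cells that met more than 1 gate were left out, which removed 5897 of the 29168 cells, and 15710 cells (53.9%) were left in exactly 1 gate.

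The gates were checked against 6 markers each. All 6 markers of the ventricular, endocardial, cushion and epicardial gates were highest in their own gate, and 5 of 6 were for the pharyngeal gate. Of the atrial markers Nr2f1, Nr2f2 and Sln were highest in the sinus venosus gate, and of the sinus venosus markers Isl1 was highest in the pharyngeal and Tbx18 in the epicardial gate, so the atrial and sinus venosus gates are named here by their selecting genes and not as pure cell types. The gates differed in size. The ventricular gate held 778, 1412, 2121 and 1063 cells of Wt1, Wt2, Ho1 and Ho2, and the cushion gate 759, 872, 1062 and 592. The endocardial gate was small, with 166, 215, 92 and 95 cells, because 4548 cells with Cdh5 also had Hapln1 and met both gates. Those that met no further gate were described as a group of their own after the overlap was seen. The epicardial gate held 32 to 68 cells. The pharyngeal gate held 2573, 618, 53 and 542 cells, so that Ho1 rested on 53 cells there, and it stood apart from the other 3 libraries for several of the factors.

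The 10 factors did not share one place of highest level. By mean level Nkx2-5 was highest in the atrial gate, Myocd in the ventricular gate, and Tbx5, Mef2c and Gata6 in the sinus venosus gate. Gata4, Gata5 and Tbx20 were highest by mean in the cushion gate, and Hand1 and Hand2 in the pharyngeal gate. Levels are given as CPM (counts per 1000000 UMIs of the gate), as mean ± SD over the 4 libraries, and were compared between gates with edgeR's quasi-likelihood test with the library as a term and TMM scaling, so that a fitted difference can depart from the ratio of plain CPM. Of 210 pairs of gates, 21 for each factor, 132 were called at an adjusted p under 0.05 (62.9%), against 46.1% of all pairs of genes and gates tested. Of the 60 pairs that were neighbours in the order of a factor's levels, 18 were called. The highest gate was separated from the next one by mean for Tbx20, Hand1 and Myocd only. Neighbours are the pairs with the closest means, so a lower share of calls is built into this count. No share over all genes is given for them. An uncalled pair could still have libraries without overlap. Gata4, for example, had 116 to 128 CPM in the cushion gate and 82.1 to 99.6 in the sinus venosus gate.

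**Figure D1:**
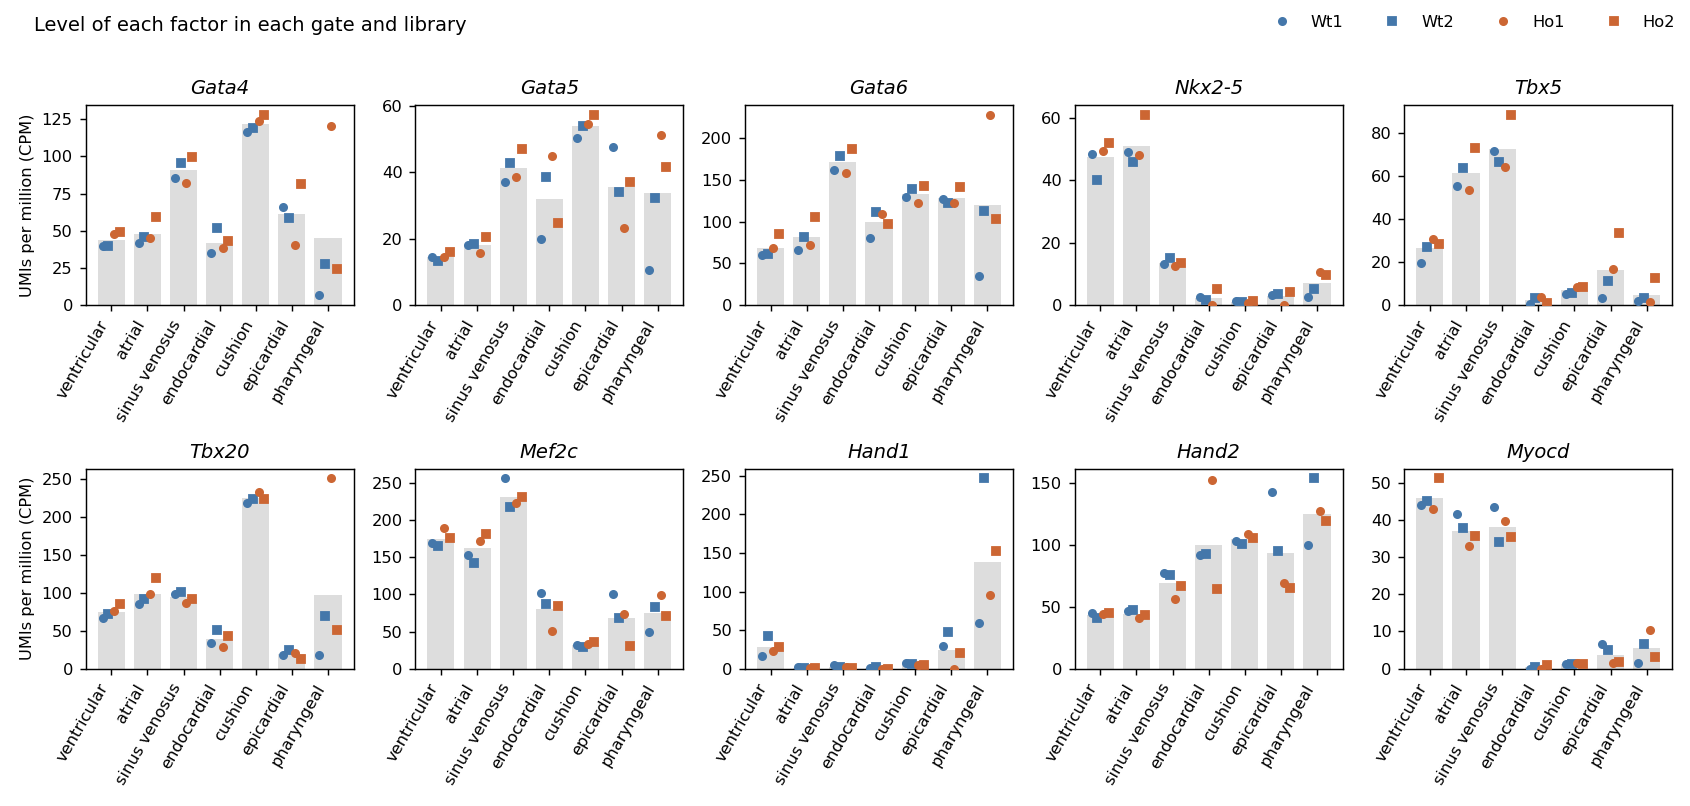
Level of each factor in each gate, in CPM (linear axes that start at 0); grey bars are means of the 4 libraries and points are single libraries (blue Wt, orange Ho; circles replicate 1, squares replicate 2). Myocd stood high in the 3 cardiomyocyte gates, Nkx2-5 in the ventricular and atrial gates, Gata4 and Tbx20 in the cushion gate and Hand1 in the pharyngeal gate, where Ho1 (53 cells) lay far above the others for Gata4, Gata6 and Tbx20.

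Gata4 (ENSMUSG00000021944, chr14:63198922-63271692, minus strand of GRCm38 in GENCODE M21), required for growth of heart muscle and for the cushions, was highest in the cushion gate with 122 ± 5.21 CPM (SD, n = 4). The libraries gave 116, 119, 124 and 128 CPM there in the order Wt1, Wt2, Ho1 and Ho2, and no library of any other gate reached this range except Ho1 in the pharyngeal gate at 121. The sinus venosus gate followed at 90.6 ± 8.18 CPM (SD, n = 4), and edgeR did not separate it from the cushion gate (log2 difference 0.40, SE 0.29, adjusted p = 0.248). The ventricular gate had 44.0 ± 5.22 and the atrial gate 47.8 ± 7.58 CPM, and both lay below the cushion gate, by log2 differences of 1.17 (SE 0.27, edgeR adjusted p = 0.000465) and 1.09 (SE 0.28, edgeR adjusted p = 0.00134). Pharyngeal cells had 6.86, 27.9, 121 and 23.9 CPM of Gata4 in the same order of libraries, and their mean was 44.8 with Ho1 and 19.6 ± 11.2 (SD, n = 3) without it. The fit placed this gate 1.18 below the ventricular one on the log2 scale (SE 0.33, edgeR adjusted p = 0.00255), although the plain means of the 4 libraries were nearly equal.

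Gata5 (ENSMUSG00000015627, chr2:180325133-180334699, minus strand), a relative that is expressed in endocardium and its cushions, had its highest level in the cushion gate too, at 54.1 ± 2.87 CPM (SD, n = 4), and its lowest in the ventricular gate, at 14.5 ± 1.07. The libraries of these gates did not overlap, with 50.4 to 57.4 CPM in cushion and 13.2 to 15.8 in ventricular cells. The log2 difference was 1.61 with a standard error of 0.20 (edgeR adjusted p = 6.4e-08), while none of the 6 neighbouring pairs of gates was called for this gene. Gata6, which works beside Gata4 in heart muscle and the outflow tract, had 161, 179, 158 and 187 CPM in the sinus venosus gate and 59.7, 60.7, 68.3 and 85.5 in the ventricular gate. These ranges did not overlap either, and the log2 difference was 1.06 with a standard error of 0.21 (edgeR adjusted p = 0.000206). Between the sinus venosus and cushion gates Gata6 was not called (log2 difference 0.40, SE 0.21, edgeR adjusted p = 0.114). It varied least between gates by the number of calls, with 5 of 21 pairs.

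Nkx2-5 (ENSMUSG00000015579, chr17:26838664-26845009, minus strand), one of the earliest markers of the heart field, was close to restricted to cardiomyocytes. The ventricular libraries had 48.2, 40.1, 49.2 and 52.0 CPM and the atrial ones 48.9, 45.7, 47.9 and 60.9, which overlapped (log2 difference 0.06, SE 0.15, edgeR adjusted p = 0.830). Sinus venosus cells had 13.1, 14.9, 12.6 and 13.4 CPM, below every ventricular and atrial library, a log2 difference of -2.13 from the ventricular gate (SE 0.20, edgeR adjusted p = 1.5e-09). In the cushion gate the mean was 0.995 ± 0.248 CPM (SD, n = 4). That was 2.10% of the ventricular level and rested on 43 UMIs over the 4 libraries. Pharyngeal cells held 6.95 ± 3.69 CPM, or 14.7% of the ventricular level.

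Myocd (ENSMUSG00000020542, chr11:65176561-65269989, minus strand), the coactivator of smooth and heart muscle genes, was highest in the ventricular gate with 44.1, 45.1, 43.0 and 51.2 CPM. The atrial libraries had 41.7, 37.8, 32.9 and 35.6 CPM, all below the ventricular ones, but edgeR did not call the pair (log2 difference -0.36, SE 0.15, adjusted p = 0.105). Sinus venosus cells had 38.1 ± 4.20 CPM (SD, n = 4), which was lower than in ventricular cells (log2 difference -0.54, SE 0.17, edgeR adjusted p = 0.0112). Outside the cardiomyocyte gates the mean level of Myocd was 5.43 CPM or less (3.75 CPM in pharyngeal cells without Ho1), and in the endocardial gate 2 UMIs were counted over all 4 libraries. The cushion level was 2.78% of the ventricular one and rested on 58 UMIs.

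Mef2c (ENSMUSG00000005583, chr13:83504034-83667080, plus strand), which drives genes of contraction and is also active in endocardium, reached 257, 218, 224 and 231 CPM in the sinus venosus gate. The ventricular gate had 169.5, 165, 189 and 176 CPM and the atrial gate 154, 142, 172 and 182, and the 3 cardiomyocyte gates were not separated from each other by edgeR, with adjusted p from 0.150 to 0.555. Cushion cells were lowest at 31.4, 29.4, 33.1 and 35.8 CPM. They lay 2.75 below the ventricular gate on the log2 scale (SE 0.16, edgeR adjusted p = 1.7e-14) and 1.38 below the endocardial gate (SE 0.19, edgeR adjusted p = 2.3e-06), whose libraries ranged from 50.8 to 102 CPM. The larger group with both Cdh5 and Hapln1 had 55.4, 45.0, 50.9 and 51.1 CPM, nearer to the cushion cells. The cushion level of Mef2c was 18.5% of the ventricular one.

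Tbx5 (ENSMUSG00000018263, chr5:119832668-119885219, plus strand), a factor of the atria, the sinus venosus and the left ventricle, had 71.9, 66.9, 64.3 and 88.7 CPM in the sinus venosus gate and 55.5, 64.1, 53.4 and 73.1 in the atrial gate. These overlapped, and the fitted difference was -0.01 (SE 0.21, edgeR adjusted p = 0.991). Ventricular cells had 19.4, 26.9, 30.8 and 28.6 CPM, below every library of both other cardiomyocyte gates, and the atrial level was 1.17 higher on the log2 scale (SE 0.20, edgeR adjusted p = 8.1e-05). Among the remaining gates epicardial cells were highest at 16.2 ± 12.8 CPM (SD, n = 4), with a spread from 3.29 in Wt1 to 33.5 in Ho2. The endocardial gate was lowest with 14 UMIs over all 4 libraries.

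Tbx20 (ENSMUSG00000031965, chr9:24718138-24774303, minus strand), a T-box repressor needed in heart muscle and in cushion cells, was highest in the cushion gate, with 218, 223, 233 and 223 CPM. The next gate by mean was atrial with 98.6 ± 14.8 CPM (SD, n = 4), and the fitted difference between them was 0.92 (SE 0.29, edgeR adjusted p = 0.00635). The ventricular libraries, at 66.0, 71.8, 76.1 and 84.8 CPM, lay just below those of the sinus venosus gate at 85.8 to 101, and edgeR did not separate these gates (log2 difference 0.05, SE 0.31, adjusted p = 0.910). In pharyngeal cells Tbx20 had 18.1, 69.1, 250.3 and 50.6 CPM, and the mean fell from 97.0 to 45.9 ± 25.8 (SD, n = 3) once Ho1 was left out. Epicardial cells were lowest at 18.9 ± 4.77 CPM (SD, n = 4), 3.64 below the cushion gate on the log2 scale (SE 0.49, edgeR adjusted p = 2.1e-06).

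Hand1 (ENSMUSG00000037335, chr11:57828705-57832818, minus strand) and Hand2 (ENSMUSG00000038193, chr8:57320983-57324633, plus strand), paralogs with separate patterns in the chambers, were both highest in the pharyngeal gate but differed elsewhere. Hand1 had 58.6, 247, 95.7 and 153 CPM in pharyngeal cells and 16.3, 42.7, 23.0 and 28.2 in ventricular cells, ranges that did not overlap (log2 difference 1.90, SE 0.23, edgeR adjusted p = 3.2e-08). In atrial cells it was nearly missing, with 7, 3, 3 and 6 UMIs, 2.47% of the ventricular level, and the fitted log2 difference was -5.70 (SE 0.44, edgeR adjusted p = 8.3e-11). This split between the chambers was the widest of any factor, since Hand2 had 43.7 ± 1.89 CPM in ventricular and 44.4 ± 3.03 in atrial cells (SD, n = 4 each, edgeR adjusted p = 0.966). Hand2, required for the right ventricle, the cushions and the pharyngeal arches, had 99.6, 154, 127 and 119.8 CPM in pharyngeal cells. Cushion cells followed with 103, 101, 109 and 106 CPM, and the pharyngeal and cushion gates were not separated (log2 difference 0.24, SE 0.14, edgeR adjusted p = 0.194). The cushion level was 0.94 higher than the ventricular one on the log2 scale (SE 0.14, edgeR adjusted p = 1.3e-06).

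Taken by pairs of gates, atrial and ventricular cells differed in 2 of the 10 factors and cushion and ventricular cells in all 10. Between atrial and ventricular cells the 2 called factors were Tbx5 and Hand1, against 20.9% of all genes, while 8 differed between sinus venosus and ventricular cells (45.5%) and 4 between sinus venosus and atrial cells (40.5%). From the ventricular gate the endocardial gate differed in 8 factors (59.3% of genes), the cushion gate in 10 (69.2%), the epicardial gate in 7 (44.0%) and the pharyngeal gate in 8 (67.2%). From the atrial gate the numbers were 6 for endocardial (58.5%), 9 for cushion (66.4%), 7 for epicardial (43.5%) and 8 for pharyngeal cells (64.7%). Gata6 was the factor that did not pass between cushion and atrial cells (edgeR adjusted p = 0.0565). From the sinus venosus gate they were 8 for endocardial (49.7%), 7 for cushion (58.0%), 6 for epicardial (35.1%) and 9 for pharyngeal cells (53.7%). The remaining pairs are those among the gates without cardiomyocytes. Cushion and endocardial cells differed in 5 (26.9%), epicardial and endocardial cells in 3 (32.6%), pharyngeal and endocardial cells in 2 (44.5%), epicardial and cushion cells in 4 (26.2%), pharyngeal and cushion cells in 7 (41.8%) and pharyngeal and epicardial cells in 4 (20.6%).

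The share of cells in which a factor was found was compared after each cell was thinned to 2000 UMIs, and shallower cells were left out, for example 148, 203, 172 and 71 ventricular cells. Tbx20 was found in 33.4% of cushion cells, Mef2c in 31.7% and Gata6 in 30.3% of sinus venosus cells, Mef2c in 26.0% of ventricular cells and Hand1 in 23.2% of pharyngeal cells (means of 4 libraries). Hand1 was found in 5.42% of ventricular and 0.0484% of atrial cells. A single atrial cell, of 517 in Ho1, had a UMI of Hand1 after thinning, while 0 of 451 cells of Wt2 allowed a share of up to 0.665% at that depth. This limits the share with a UMI at 2000 UMIs per cell and not the share of cells that express Hand1. Without thinning, 1.87%, 0.656%, 0.381% and 1.08% of atrial cells of Wt1, Wt2, Ho1 and Ho2 had a UMI of Hand1. These limits and the exact intervals cover counting error only. Without thinning, the cells of a gate carried more factors at once: the median ventricular cell of Wt1 had UMIs of 3 of the 10 factors and that of each other library 5, at median depths of 11959 and 18234 to 19920 UMIs.

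Nkx2-5 and Myocd, factors of muscle, were rare in cushion cells. They were found after thinning in 0 and 3 of 852 cushion cells of Wt2 (0% and 0.352%, median depth 14246 UMIs), against 9.68% and 6.87% of 1209 ventricular cells of Wt2 (median depth 20368). Without thinning, 1.49% and 1.83% of the 872 cushion cells of Wt2 had a UMI of Nkx2-5 and Myocd, so the thinned shares are set by the depth of 2000 UMIs. The source of the few counts in cushion cells was not tested.

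**Figure D2:**
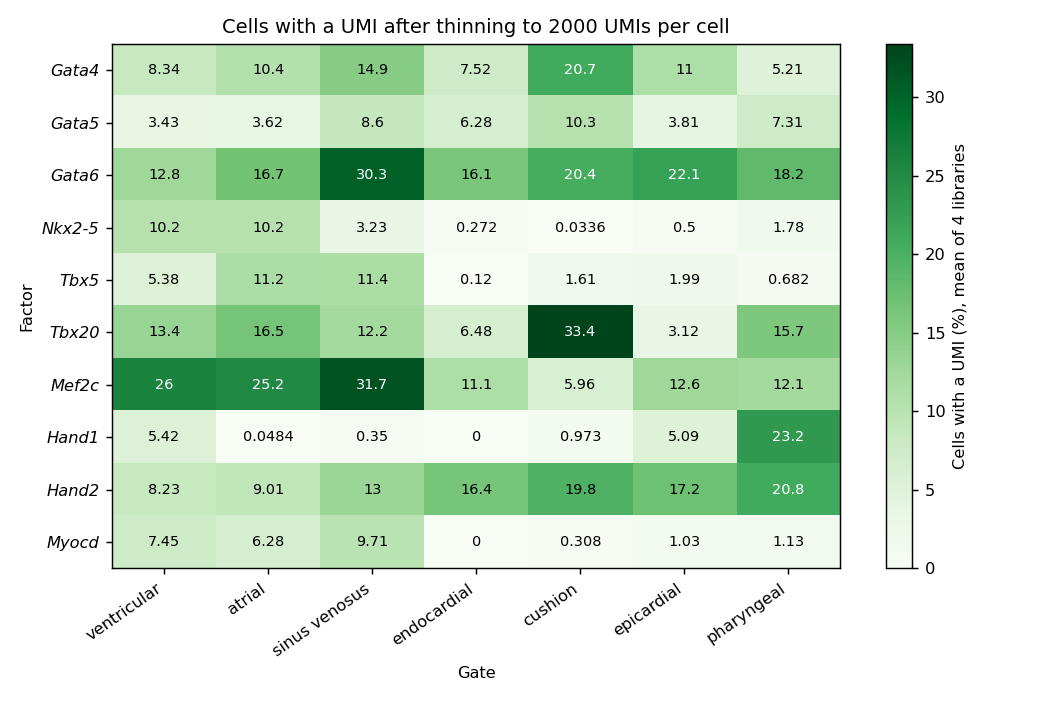
Share of cells with at least 1 UMI of each factor (rows) in each gate (columns) after thinning to 2000 UMIs per cell, as the mean of 4 libraries in percent, with darker green for a higher share. Mef2c stood between 25.2% and 31.7% in the cardiomyocyte gates, Tbx20 at 33.4% in the cushion gate and Hand1 at 23.2% in the pharyngeal gate.

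The likeness of the factors over the 28 sums (7 gates in 4 libraries) was described with Pearson's r of log2(CPM + 1). The sums of a gate share cells of one kind and those of a library share its dissection and depth, so r is given as a description. Nkx2-5 and Myocd were most alike (r = 0.90), followed by Gata5 and Gata6 (r = 0.86) and Mef2c and Myocd (r = 0.84). Nkx2-5 and Hand2 ran most opposite (r = -0.78). Beyond the factors, the 3 genes with the highest r among 13269 others were Popdc2 (0.99), Rbm24 and Nexn for Myocd and Shb (0.94), Igfbpl1 and Palld for Nkx2-5. For Tbx5 they were Bhlhe41 (0.95), Mtfr1l and Gnao1, for Hand1 Cxcl12 (0.93), Psd and Nkx2-6, and for Tbx20 Ank (0.90), Serpine2 and Vdac3. Those of Mef2c were Mmd (0.91), Rbfox2 and Sirt3, and those of Hand2 were Phax (0.93), Casp8ap2 and Ccdc18. The GATA factors had lower values, with Btg3 (0.84), Slc1a3 and Rcsd1 for Gata4, Gpx7 (0.89), Rcn1 and Rcn3 for Gata5, and Map1b (0.85), Nenf and Rab6a for Gata6.

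**Figure D3:**
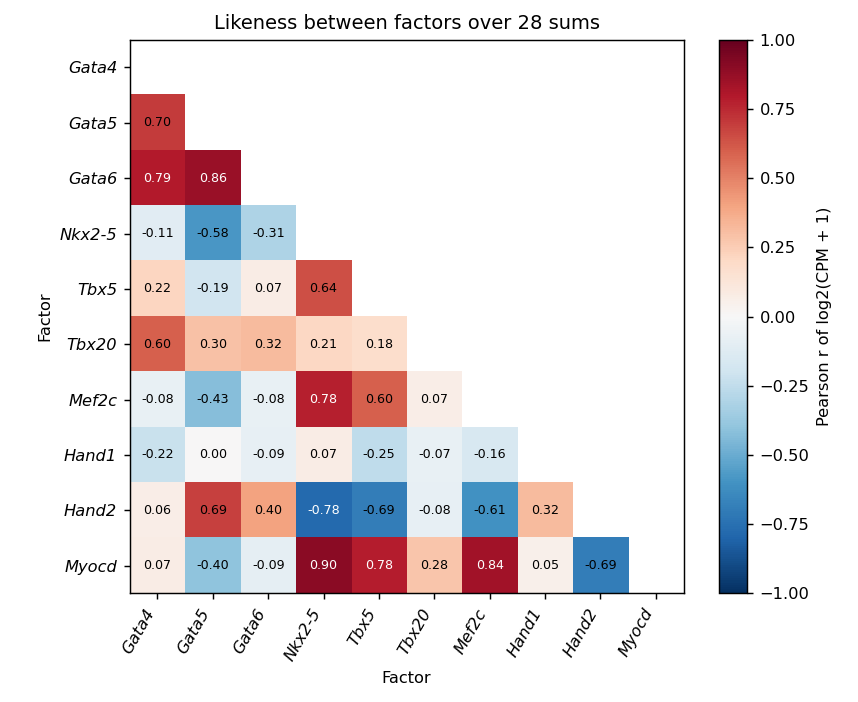
Pearson r of log2(CPM + 1) between each pair of factors over 28 sums (7 gates in 4 libraries), red for positive and blue for negative values. Nkx2-5, Mef2c, Tbx5 and Myocd were alike with r from 0.78 upward for the pairs with Myocd, and each of them had a negative r with Hand2.

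Ho was then compared with Wt within each gate, which compares the mRNA of the factors in cells selected by the same markers. The makeup of a gate may still differ between libraries, and its part was not tested. No factor was called in any gate, in the group with both Cdh5 and Hapln1 or in whole libraries, by edgeR's quasi-likelihood test with Benjamini-Hochberg adjustment over all genes tested. In the ventricular gate 13363 genes were tested, none was called (0%), and 9.72% had an unadjusted p under 0.05, while DESeq2 called 24 genes there, with adjusted p of 0.840 for Gata4 and 0.682 for Gata6. Of the 10 factors 2, Gata4 and Gata6, had an unadjusted p under 0.05, 9 had a positive fold change, and the median log2 fold change was 0.13 against 0.0080 over all genes. For 6 factors each Ho value exceeded each Wt value, as it did for 25.1% of all genes, and for none of them was it the other way round, against 15.2%. The median mitochondrial share of UMIs in these cells was also higher in both Ho libraries, with 1.43%, 1.49%, 1.72% and 2.37% in Wt1, Wt2, Ho1 and Ho2, and its part in the values was not tested. With simulated ventricular sums, 163 of 200 genes given a log2 shift of 1 were found, and 46 of 200 given a shift of 0.5. The log2 fold change of Gata6 was 0.44 without Ho1 (edgeR adjusted p = 0.0455) and 0.18 without Ho2 (edgeR adjusted p = 0.519).

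**Figure D4:**
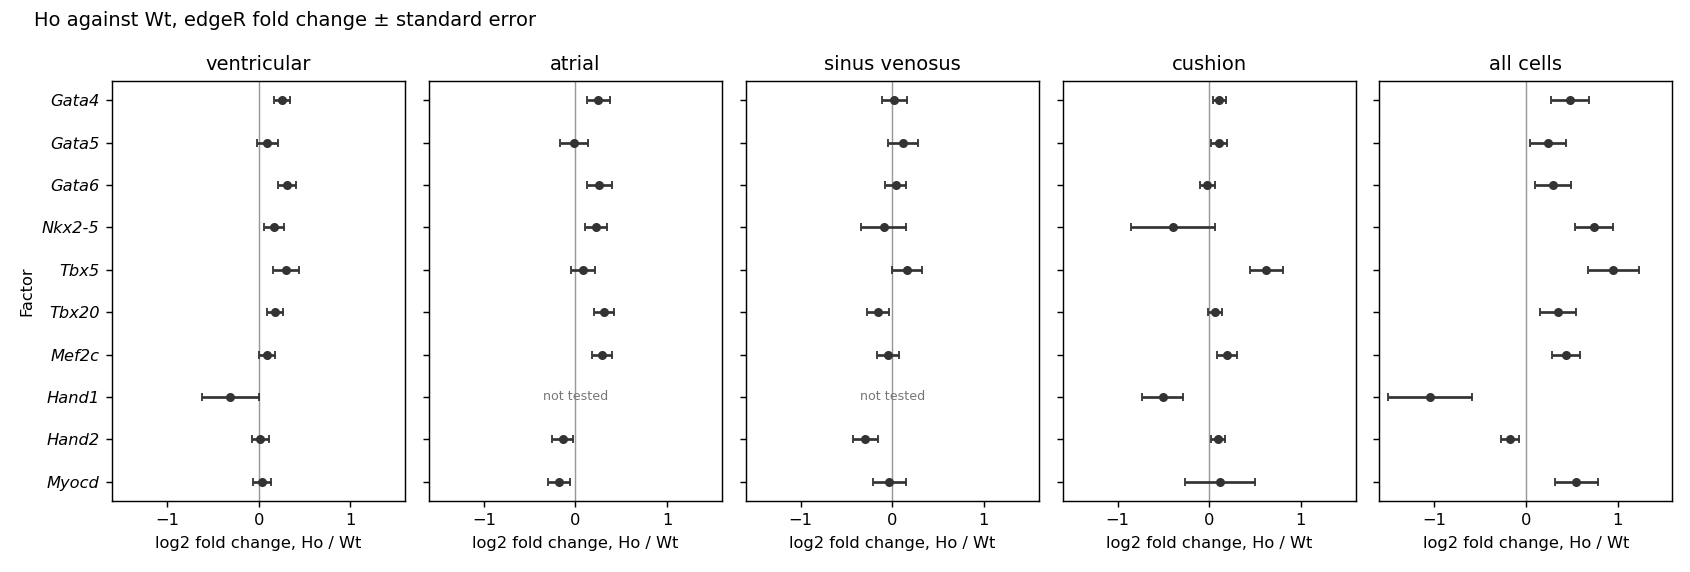
Fitted log2 fold change of Ho over Wt (horizontal axis) for each factor in 4 gates and in whole libraries, with bars of 1 standard error from edgeR; n = 2 libraries per genotype, and Hand1 was below the filter on low counts in 2 gates. None was called; in ventricular cells 9 of 10 lay right of 0, and in all cells Hand1 and Hand2 lay left of it.

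The study reported lower Gata4 mRNA in mutant hearts and fewer GATA4-positive cardiomyocytes by staining, at a later stage than the E10.5 cells used here. Stage and measure thus differ from those of the values below. Gata4 was called in none of the ventricular, atrial, cushion, endocardial and sinus venosus gates. It was also not called in the group with both Cdh5 and Hapln1 or in whole libraries. Ventricular cells had 39.5 CPM in both Wt1 and Wt2 and 47.8 and 49.2 in Ho1 and Ho2, without overlap. The log2 fold change was 0.26 with a standard error of 0.09 (edgeR adjusted p = 0.428), and over 18 alternatives of processing it ranged from 0.20 to 0.30, with adjusted p from 0.306 to 1. Atrial cells had 41.7, 45.8, 44.9 and 58.9 CPM, which overlapped, with a log2 fold change of 0.25 (SE 0.13, edgeR adjusted p = 0.998) that was 0.39 without Ho1 and 0.10 without Ho2. In the cushion gate, where Gata4 is highest, the libraries were ordered 116, 119, 124 and 128 CPM with a log2 fold change of 0.11 (SE 0.07, edgeR adjusted p = 0.941). The endocardial gate gave -0.05 (SE 0.25, edgeR adjusted p = 1.0) from 34.8, 51.6, 38.1 and 43.3 CPM. In the larger group with both Cdh5 and Hapln1, Gata4 had 69.9, 72.1, 74.4 and 87.3 CPM, with each Ho library above each Wt library and a log2 fold change of 0.22 (SE 0.09, edgeR adjusted p = 0.918). After thinning to 2000 UMIs, 6.03% and 7.44% of ventricular cells of Wt1 and Wt2 had a UMI of Gata4 (exact 95% intervals 4.30% to 8.19% and 6.03% to 9.07%). In Ho1 and Ho2 the shares were 10.2% and 9.68% (8.90% to 11.6% and 7.91% to 11.7%). The mean difference was 3.21 percentage points, and the exact two-sided permutation test of 2 against 2 libraries gave its smallest possible p of 0.33. The share was higher in Ho by 2.67 points in atrial cells and by 0.445 in cushion cells. At this depth it went the other way, by -2.86 points, in endocardial cells (8.81%, 9.09%, 6.74% and 5.43%). In sinus venosus cells it went by -3.00 points (16.6%, 16.3%, 11.3% and 15.6%). The shares of the genotypes did not overlap in either gate, and the exact permutation p was again 0.33. The CPM of Gata4 in sinus venosus cells did overlap, with 85.6, 95.3, 82.1 and 99.6 in the same order of libraries. Its log2 fold change there was 0.02 (SE 0.13, edgeR adjusted p = 0.990). At 2000 UMIs the endocardial shares rested on 14, 19, 6 and 5 cells with a UMI in Wt1, Wt2, Ho1 and Ho2. Their exact 95% intervals overlapped, with 4.90% to 14.3% in Wt1 and 1.79% to 12.2% in Ho2. The direction of the share in endocardial and sinus venosus cells differed between depths. Each depth was a single random draw, and the cause of the change was not tested. The endocardial difference was 1.50 points at 5000 UMIs and 1.98 without thinning. That of sinus venosus cells was -1.23 at 5000 UMIs and 3.80 without thinning.

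The other factors were compared in the gate where each was highest. None of them was called, and their adjusted p from edgeR lay between 0.926 and 0.999. Gata5 and Tbx20 in the cushion gate had log2 fold changes of 0.11 (SE 0.09) and 0.06 (SE 0.07), and that of Tbx20 was 0.02 without Ho1 and 0.11 without Ho2. In the sinus venosus gate Gata6 had 0.04 (SE 0.12), Tbx5 0.16 (SE 0.16) and Mef2c -0.05 (SE 0.12), and Nkx2-5 in the atrial gate had 0.22 (SE 0.12), which was 0.35 without Ho1 and 0.10 without Ho2. Myocd in ventricular cells had 0.03 with a standard error of 0.10. In the pharyngeal gate, which held 53 cells in Ho1, Hand1 had -0.20 (SE 0.59) and Hand2 -0.02 (SE 0.23), and the standard errors show how little that gate could resolve for Hand1.

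A few further values had an unadjusted p under 0.05 in the ventricular, atrial and cushion gates, and these were picked after the values were seen. In ventricular cells Gata6 had 59.7, 60.7, 68.3 and 85.5 CPM, a log2 fold change of 0.31 (SE 0.10, edgeR adjusted p = 0.422). In atrial cells Tbx20 had 85.0, 91.9, 98.2 and 119 CPM (log2 fold change 0.31, SE 0.11, edgeR adjusted p = 0.873) and Mef2c 154, 142, 172 and 182 CPM (0.29, SE 0.11, edgeR adjusted p = 0.885). In cushion cells, where Tbx5 is low, it had 5.08, 5.79, 8.17 and 8.57 CPM, a log2 fold change of 0.63 (SE 0.18, edgeR adjusted p = 0.610). Hand1 went the other way in cushion cells with 7.41, 5.71, 4.19 and 4.96 CPM and a log2 fold change of -0.51 (SE 0.22, edgeR adjusted p = 0.867). Each of these 5 had both Ho libraries on one side of both Wt libraries, and none survived adjustment. Over 18 alternatives of processing, the value of Hand1 in cushion cells ranged from -1.07, with gates of 1 UMI, to -0.22. It was -0.30 without Wt1.

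The counts by gate stood beside the background of all genes as follows. In the atrial gate 0.118% of genes were called and 4.29% had an unadjusted p under 0.05, and of 9 factors tested 2 had both Ho libraries above both Wt libraries (11.5% of all genes) and 2 both below (19.5%). In the sinus venosus gate 0.00959% of genes were called and 5.96% had an unadjusted p under 0.05, none of them a factor, and of 9 factors none had both above (16.4%) and 2 both below (18.9%). In the cushion gate 0.0800% were called and 5.67% had an unadjusted p under 0.05, and of 10 factors 6 had both above (14.8%) and 1 both below (19.4%). The summed level of 9 dissociation and heat shock genes in these cushion cells was 828, 829, 920.4 and 954 CPM. Their median mitochondrial share was 1.05%, 1.09%, 1.10% and 1.44%, and their globin genes summed to 46.1, 58.0, 78.5 and 62.4 CPM. All of these were higher in both Ho libraries, and their part in the values of the factors was not tested. The endocardial gate, with 6 factors tested and no gene called (0%), had 0 factors with both above (10.6%) and 1 with both below (18.8%), and 181 of its genes (2.09%) had an unadjusted p under 0.05 while DESeq2 called 0. Epicardial and pharyngeal cells, with as few as 32 and 53 cells in Ho1, had 3 factors each with an unadjusted p under 0.05, against 4.08% and 1.44% of genes. Those were Tbx5, Hand1 and Hand2 in epicardial cells and Gata5, Nkx2-5 and Tbx5 in pharyngeal cells, with edgeR adjusted p of 0.997 and 0.999. Called genes made up 0.0149% in the epicardial and 0% in the pharyngeal gate, where DESeq2 called 0 as well. Each Ho value exceeded each Wt value for 1 of 8 epicardial factors (14.6% of genes) and 2 of 10 pharyngeal ones (11.0%), and lay below for 2 (17.6%) and 0 (14.7%). In cells with both Cdh5 and Hapln1 0.0529% of genes were called, 5.39% had an unadjusted p under 0.05, and of 9 factors 4 lay above (12.1%) and 1 below (23.0%). The 2 factors of that group with an unadjusted p under 0.05 were Gata4 and Hand1, the latter with 8, 23, 3 and 7 UMIs and a log2 fold change of -1.74 (SE 0.60, edgeR adjusted p = 0.918). Globin genes summed to 92.7, 77.6, 780.1 and 124 CPM in that group and dissociation and heat shock genes to 910.0, 895, 945 and 915, both higher in the Ho libraries, and their part was not tested.

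In whole libraries the log2 fold changes of Nkx2-5, Tbx5, Mef2c and Gata4 were larger than in the 3 cardiomyocyte gates, and those of the Hand factors were negative. In the pharyngeal gate, with 53 cells in Ho1, Nkx2-5 had 1.40, Tbx5 1.94 and Gata4 2.01, and Tbx5 had 1.80 in the epicardial gate, none of them called. These values and those of Nkx2-5, Tbx5 and Mef2c in whole libraries were picked after they were seen. In whole libraries Nkx2-5 had 12.1 and 18.1 CPM in Wt1 and Wt2 and 25.3 and 23.4 in Ho1 and Ho2 (log2 fold change 0.75, SE 0.21, edgeR adjusted p = 0.801). Tbx5 had 10.7, 19.1, 24.7 and 31.0 CPM (0.95, SE 0.28) and Mef2c 84.3, 109, 131 and 122 (0.43, SE 0.16), both with the same adjusted p from edgeR. Gata4 had 39.4, 59.9, 67.8 and 65.4 CPM (log2 fold change 0.48, SE 0.21, edgeR adjusted p = 0.801). These values depended on the Wt libraries: without Wt1 they were 0.49 for Nkx2-5, 0.60 for Tbx5, 0.27 for Mef2c and 0.21 for Gata4, and without Wt2 they were 1.05, 1.41, 0.61 and 0.79. Hand1 had 37.9, 49.4, 10.8 and 30.5 CPM and Hand2 88.9, 88.9, 75.5 and 77.2. Of the 10 factors 5 had both Ho libraries above both Wt libraries, against 14.9% of all 16978 genes, and 2 had both below, against 22.6%. No gene was called by edgeR in whole libraries (0%), 4.64% had an unadjusted p under 0.05, and DESeq2 called 21. The makeup of the libraries moved with these values, since cardiomyocytes made up 20% and 37.9% of cells in Wt1 and Wt2 and 52.2% and 41.4% in Ho1 and Ho2. Cells of the pharyngeal gate, where both Hand factors were highest by mean, made up 28.9%, 8.64%, 0.759% and 8.85% in the same order, so Ho2 stood just above Wt2. A larger share of cells of a type and more RNA per cell cannot be told apart in whole libraries, and within the atrial gate the log2 fold change of Nkx2-5 was 0.22. Both Ho libraries also stood above both Wt libraries in the dissociation and heat shock genes (710.2, 958, 1004 and 1052 CPM), the globin genes (347, 599.6, 2315 and 822 CPM) and the median mitochondrial share (1.01%, 1.20%, 1.28% and 1.59%), whose part was not tested.

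The difference between Ho and Wt was also tested for being unlike between the 7 gates. Of 13279 genes 1 was called in this interaction (0.00753%) and 1.95% had an unadjusted p under 0.05. No factor was called, with an adjusted p of 1.0 for each, and the lowest unadjusted p from edgeR were 0.00215 for Tbx5 and 0.0394 for Nkx2-5. With simulated sums, this test found 117 of 200 genes given a log2 shift of 1 and 0 of 200 given 0.5.

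Genes that work with the factors were taken as lists and compared in ventricular cells, where none was called by edgeR. Of 12 cofactors and partners, 8 had a positive log2 fold change and the median was 0.14. The 2 with the lowest unadjusted p were Zfpm2 (Fog2), a partner of GATA factors, with 8.42, 9.87, 11.4 and 13.2 CPM (log2 fold change 0.36, SE 0.13, edgeR adjusted p = 0.436), and Mef2d, a relative of Mef2c, with 30.0, 31.7, 36.0 and 37.3 CPM (0.21, SE 0.09, edgeR adjusted p = 0.513). Both had the Ho libraries above the Wt libraries. Of 14 related factors of heart regions, 12 were tested, 5 were positive, and the median was -0.06. Tbx3, a T-box repressor of the conduction system, had 8.74, 6.33, 12.8 and 14.5 CPM (log2 fold change 0.87, SE 0.16, edgeR adjusted p = 0.264). Isl1, a factor of second heart field progenitors, had 17.7, 15.9, 6.15 and 11.2 CPM (log2 fold change -1.03, SE 0.22, edgeR adjusted p = 0.319). Whether they were called depended on the processing. Tbx3 was called without Wt1, Ho1 or Ho2 (edgeR adjusted p from 0.0021 to 0.033) and Isl1 without Wt1 (0.048) or Ho2 (9.7e-05), and the value of Isl1 was -0.64 without Ho1. In addition DESeq2 called Isl1 (adjusted p = 0.0238), and without the filter on low counts edgeR called Tbx3 (adjusted p = 8.7e-07) and Isl1 (adjusted p = 1.8e-10).

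None of the genes downstream of the factors was called either. Of 15 chamber and contractile targets, 6 had a positive fold change with a median of -0.02, and the lowest unadjusted p belonged to the calcium exchanger gene Slc8a1 (515, 520.3, 600.3 and 647 CPM, log2 fold change 0.23, SE 0.09, edgeR adjusted p = 0.495) and the myosin gene Myh6 (0.19, SE 0.11, edgeR adjusted p = 0.60). All 6 smooth muscle genes of Srf and Myocd had a negative fold change, with a median of -0.19, where 51.7% of all genes had a positive one. The genotypes overlapped for 4 of the 6, and for 2 both Ho libraries were below both Wt libraries, against 15.2% of all genes. The lowest unadjusted p there were those of Cald1 (79.7, 76.5, 64.8 and 73.4 CPM, log2 fold change -0.22, SE 0.09, edgeR adjusted p = 0.477) and Myl9 (-0.20, SE 0.11, edgeR adjusted p = 0.591), and Cald1 was at -0.06 with doubled gate thresholds.

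A further pair of lists marks other material in the same ventricular cells. The summed level of 7 globin genes was 4.75, 12.7, 265 and 12.2 CPM in Wt1, Wt2, Ho1 and Ho2, with Hba-x as the most abundant, so Ho1 stood far above the rest. Hba-x and Hba-a2 had log2 fold changes of 4.31 (SE 1.29) and 4.16 (SE 1.22), with edgeR adjusted p of 0.402 and 0.391, and without Ho1 they had 0.14 and 0.88. The summed level of 9 dissociation and heat shock genes was 789.6, 779, 929 and 1057 CPM, higher in both Ho libraries, and Jun was the most abundant. Fosb and Atf3 had log2 fold changes of 0.68 (SE 0.11, edgeR adjusted p = 0.202) and 0.45 (SE 0.10, edgeR adjusted p = 0.319). When a library was left out, Fosb ranged from 0.57 to 0.79 and Atf3 from 0.34 to 0.59. Whether Fosb, Atf3, Hba-x and Hba-a2 were called depended on the processing, since each passed the threshold under some other setting. Without Ho1, Gata4 kept a ventricular log2 fold change of 0.25 and 8 of the 10 factors had a positive one. The part of the dissociation genes in the values of the factors was not tested.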

How the data were processed

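The authors deposited 1 matrix of raw UMI counts per library from 10x 3′ libraries, and their processing notes name Cell Ranger 6.1.1, Seurat 4.1.0 and mm10. The factors, lists and tests were chosen with earlier results of these data known. Cells with 500 to 50000 UMIs, 500 to 6000 genes and under 20% mitochondrial UMIs were kept, and doublets were removed with Scrublet (scanpy 1.11.5), between 5.17% and 7.73% of cells in a library. Cardiomyocytes had over 52.0 UMIs of 6 sarcomere genes per 10000 UMIs and ventricular cells over 7.52 of Myl2, both set by Otsu's method on these cells, and 5.87% of cells and 8.89% of cardiomyocytes lay between 0.5 and 2 times the respective threshold. Counts were summed per library and gate and tested with edgeR 4.0.16 (quasi-likelihood, TMM, filterByExpr, Benjamini-Hochberg adjusted p under 0.05), with DESeq2 1.42.0 as an alternative. The tests were checked on simulated data. Positions came from GENCODE M21, which held 32158 of the 32285 gene IDs (99.6%). Levels were not compared between genes, since 3′ counts do not give them per length. Fold changes were named for each factor in its gate of highest level, for Gata4 also in other gates, and for the 2 genes of each list with the lowest unadjusted p in ventricular cells. The 3 genes most like each factor were taken by Pearson's r. Values outside this rule are said to be picked after they were seen. The groups of cells with both Cdh5 and Hapln1 and the crossed pairing were added after seeing the data.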

Additional observations from a re-analysis of the deposited data

How the results depend on the processing

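Over 392 values of 22 fold changes of the factors under other settings, 372 kept their sign, 20 reversed and 1 passed the threshold (Gata6 in ventricular cells without Ho1). The reversed values lay between -0.20 and 0.16 as reported, and the causes were not tested. Gata6, Tbx5 and Mef2c in the sinus venosus gate ranged from -0.073 to 0.13, -0.077 to 0.36 and -0.20 to 0.11 when a library was left out, and Gata6 was -0.0029 without Wt1. Gata4 in the endocardial gate ranged from -0.27 to 0.25, Myocd in ventricular cells from -0.057 to 0.13, and in pharyngeal cells Hand1 from -0.89 to 1.01 (0.07 without Ho1) and Hand2 from -0.25 to 0.21. Mef2c in the sinus venosus gate was 0.019 with doublets kept, 0.11 with gates of 1 UMI and 0.22 with the marker alone. Gata4 in the endocardial gate was 0.037 with gates of 1 UMI, 0.13 with 3 UMIs, 0.25 with the marker alone and 0.24 with Cdh5 taken first. Hand2 in pharyngeal cells was 0.043 with gates of 1 UMI and 0.018 with doubled thresholds.

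The number of genes called between Ho and Wt depended on the processing. In the order ventricular, atrial, sinus venosus, endocardial, cushion, epicardial and pharyngeal it was 250, 63, 97, 23, 151, 47 and 152 without a filter on low counts, and 175 in cells with both Cdh5 and Hapln1. DESeq2 called 24 in ventricular, 5 in atrial, 2 in sinus venosus and 0 in epicardial cells, 21 in whole libraries and 19 in cells with both markers. With at least 10 UMIs in every library 2 were called in sinus venosus and 0 in epicardial cells. A single fit over all gates called 0 in atrial, cushion and epicardial cells and 5 in pharyngeal cells. With doublets kept the counts were 3 in atrial, 0 in sinus venosus, 5 in cushion and 0 in epicardial cells. Gates of 1 UMI gave 1 in cushion, 0 in epicardial and 2 in cells with both markers, and gates of 3 UMIs gave 6, 4 and 12. The marker alone gave 0 in atrial, 0 in cushion and 4 in epicardial cells, and doubled thresholds gave 0 in sinus venosus and epicardial cells. Leaving out 1 library gave 23 to 143 in ventricular, 28 to 55 in atrial, 28 to 165 in sinus venosus, 0 to 194 in endocardial, 1 to 192 in cushion, 0 to 140 in epicardial, 0 to 5 in pharyngeal and 7 to 233 in cells with both markers, and 0 to 5 in whole libraries. The lone library of an arm was then assumed to vary like the other group. Of the gate pairs of the factors 108 to 138 were called and of the neighbours 11 to 20, with 11 both without Wt2 and without Ho2. The interaction gave 0 to 16 genes, and 0 with no library term.

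Whether replicate numbers paired the samples is not known. The correlation of same-numbered libraries, taken as departures from the mean of their genotype, lay between -0.486 and 0.099. With 2 libraries per genotype it cannot settle whether they shared a litter or batch. With the replicate block 71 genes were called in atrial, 38 in sinus venosus, 24 in cushion, 0 in epicardial and 23 in cells with both markers. The crossed pairing gave 15 in ventricular, 37 in atrial, 22 in sinus venosus, 102 in cushion, 22 in epicardial cells, 158 in cells with both markers and 74 in whole libraries, and under this block Hand1 and Hand2 in pharyngeal cells were 0.16 and 0.019.

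The difference in the share of cells with Gata4 depended on thinning. In ventricular cells it went from 3.21 percentage points at 2000 UMIs to 4.78 at 5000 and 15.5 without thinning. In cushion cells it went from 0.445 to 4.74 and 5.37. Its sign reversed in endocardial cells, from -2.86 to 1.50 and 1.98. In sinus venosus cells it went from -3.00 to -1.23 and, without thinning, to 3.80. Without thinning the libraries were of unequal depth, with a median of 11959 UMIs in ventricular cells of Wt1 and 18234 to 19920 in the others.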

Other observations

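Annotated transcripts beside the factors were also counted, and they were named after their values were seen. Hand2os1, which overlaps Hand2 on the opposite strand, had a mean of 136.6 CPM in ventricular, 183 in atrial, 181 in sinus venosus and 138 in cushion cells over the 4 libraries. Ventricular libraries had 141, 139, 135 and 131 CPM in the order Wt1, Wt2, Ho1 and Ho2, and cushion libraries 136, 138, 132 and 145. The plain CPM of Hand2os1 was thus alike in the ventricular and cushion gates. Atrial libraries had 176 to 197 CPM, above every ventricular library. Means of the other gates were 224 in endocardial, 140 in epicardial and 194 in pharyngeal cells. The plain mean of Hand2 itself was 43.7 CPM in ventricular and 105 in cushion cells. No fitted difference or test of Hand2os1 between gates is given. Whether the counting kept the strands of the overlapping pair apart was not tested.

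Gm43050, a long noncoding RNA near Tbx5, had 19.97, 14.0, 17.8 and 16.6 CPM in sinus venosus cells. Ventricular cells had 7.34, 4.66, 6.67 and 6.63 CPM and atrial cells 5.16, 4.30, 4.11 and 5.30, below every sinus venosus library. Tbx5 itself did not differ between the atrial and sinus venosus gates in the fit. No test of Gm43050 between gates is given, since it was picked for its values.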
